A study of Homo sapiens with 4 samples.

Results

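The transcriptional response to dihydrotestosterone (DHT) was described in LNCaP cells, an androgen-sensitive line of human prostate cancer, after transfection of an siRNA against POTEF-AS1, a long noncoding RNA named as antisense to the gene POTEF. The response is the log2 signal of the array from DHT-treated siPOTEF-AS1 cells minus that of the array from vehicle-treated siPOTEF-AS1 cells. It was followed over the probe sets that the table pairs with a single gene symbol, and of several probe sets with the same symbol the one brightest on average over the 4 arrays was kept. This gave 2447 genes, out of 2493 distinct entries in the symbol column of a table of 33297 probe sets. No DHT difference entered the choice of genes.

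The study had 4 groups of 1 array each: siControl cells with vehicle, siControl cells with DHT, siPOTEF-AS1 cells with vehicle and siPOTEF-AS1 cells with DHT. All cells were LNCaP cells grown with 10% serum. They then spent 3 days without phenol red in 2.5% serum stripped of steroids by charcoal and dextran, received siRNA 48 h before the hormone, and were given ethanol as vehicle or 10 nM DHT. How long the hormone acted before harvest was not given in the sources used here, and LNCaP is a single line, so that the arrays carry no spread between cell lines or cultures. No array had a replicate, and each difference below is therefore that of 1 array against 1 array, with no error of its own. The siControl pair, which shares no array with the siPOTEF-AS1 pair, is given beside it.

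Androgens act through the androgen receptor, a nuclear receptor that moves to the nucleus on binding DHT and binds DNA as a dimer at elements made of repeated AGAACA-like half-sites. In prostate epithelium it raises genes of secretion, lipid synthesis and growth factor signalling and lowers others, and LNCaP cells deprived of steroids regain growth when androgen is returned. The POTE genes, to one of which the targeted RNA is antisense by its name, code for ankyrin repeat proteins found in primates only.

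A gene was counted as expressed when the highest of its 4 arrays reached the median signal of the named genes over all arrays, 6.45 on the log2 scale, and 1300 of the 2447 genes did. The other 1147 genes are described only where stated. Where either array of the siPOTEF-AS1 pair was below that signal, no fold is given, because RMA understates differences near background. The 4 arrays correlated at 0.988 to 0.995 over all probe sets, and the lowest of these values was that of the siPOTEF-AS1 pair itself. Of the 14 luminal prostate markers looked for, 0 were paired with a symbol, so that the label could not be checked against them. Of 6 basal markers 2 were named, KRT5 and KRT15. KRT5 was close to the expression floor, with a log2 signal of 5.98 with vehicle and 6.47 with DHT in siPOTEF-AS1 cells and 6.57 and 6.53 in siControl cells. KRT15 did not exceed 5.59 on any array. None of the 6 neuroendocrine, 6 stromal and 5 immune markers was named. POTEF-AS1 carried no symbol in the table, so the transcript itself is not analysed here, and how far it was depleted was not checked.

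Under siPOTEF-AS1, DHT was accompanied by a 2-fold or higher signal in 13 of 1300 expressed genes, which is 1%, and by a 2-fold or lower one in 12, which is 0.923%. The median over all expressed genes was 0.00 on the log2 scale. The largest differences on the higher side were those of SGK1, CENPN, AGR2, IGF1R and MICAL1, and on the lower side those of COLEC12, MCTP1 and RFX3. The genes are taken below by what each is known to do, and this order stands for no enrichment of any function.

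The 4 arrays also allow 1 test, that of a hormone effect common to both siRNA arms. It came from limma, as a model of siRNA and hormone with 1 residual degree of freedom, adjusted by Benjamini-Hochberg over 26722 annotated probe sets. At an adjusted p of 0.05 it called 453 probe sets higher, which is 1.7%, and 364 lower, which is 1.36%. Among the 1300 expressed genes it called 30 higher and 22 lower, together 4%. With each array centred on its median first it called 48 higher and 70 lower, and with a signal trend in the prior 57 and 80, so that the balance of directions depends on the fit. All 13 genes of the 2-fold higher group and 11 of the 12 in the lower group were among the 30 and 22 calls. These genes were chosen by the siPOTEF-AS1 difference, which is part of the hormone effect tested, so that these counts are no independent evidence. The words rose and fell are used below for the 30 and 22 calls only, and they refer to both arms together. The p-values rest on how far the DHT differences of both arms disagree, moderated over all probe sets, and that spread may be technical. A gene whose arms differ can therefore miss the test. Neither the response of siPOTEF-AS1 cells by itself nor its difference from that of siControl cells could be tested.

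**Figure D1:**
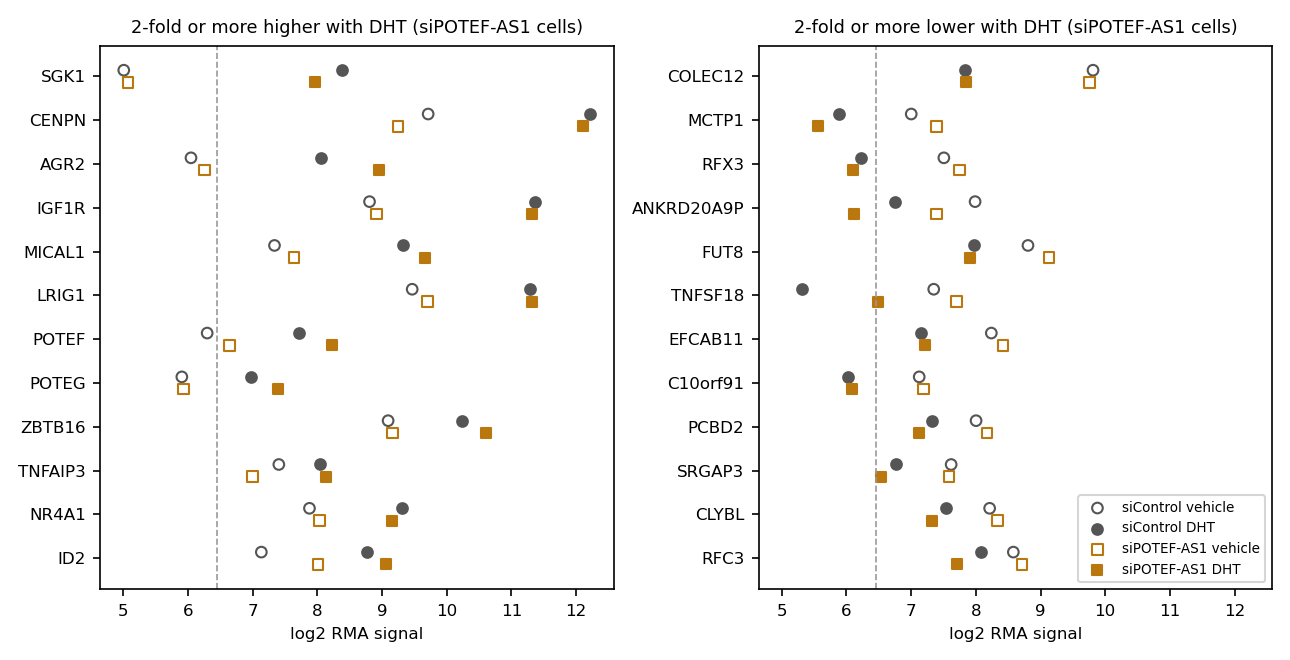
Log2 signal on each of the 4 arrays for the genes described here that were at least 2-fold higher (12) or lower (12) with DHT in siPOTEF-AS1 cells, 1 row a gene and 1 marker an array, with the genes ordered by their difference and a dashed line at the expression floor. In each higher gene both DHT arrays lie to the right of both vehicle arrays, and in each lower gene to the left of them, with SGK1 and COLEC12 the farthest apart under siPOTEF-AS1 on their sides. The genes were chosen by their difference in the siPOTEF-AS1 pair, so that the order of that pair was fixed by the choice.

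The first genes belong to growth factor signalling. SGK1, a steroid-induced serine/threonine kinase related to AKT, had a log2 signal of 5.07 on the siPOTEF-AS1 vehicle array and 7.97 on the DHT array, against 5.01 and 8.38 on the siControl pair. Its difference was 2.89 under siPOTEF-AS1 and 3.37 under siControl (limma adjusted p = 0.00203). The vehicle arrays of both arms lay below the expression floor and the DHT arrays above it, so that SGK1 counted as expressed through its DHT arrays alone. IGF1R, the receptor tyrosine kinase for insulin-like growth factors, went from 8.92 with vehicle to 11.32 with DHT in siPOTEF-AS1 cells and from 8.81 to 11.36 in siControl cells. That is a difference of 2.40, or 5.27-fold, under siPOTEF-AS1 and of 2.55 under siControl (limma adjusted p = 0.00203). LRIG1, a transmembrane protein known to restrain receptor tyrosine kinases, had 9.70 and 11.32 under siPOTEF-AS1 and 9.47 and 11.29 under siControl. It rose, by 1.62 (3.08-fold) under siPOTEF-AS1 and by 1.82 under siControl (limma adjusted p = 0.00417). In all 3 genes both DHT arrays lay above both vehicle arrays, in the siPOTEF-AS1 pair by their choice, and the siPOTEF-AS1 difference was smaller than that under siControl. Of the growth factor and insulin list, the transcription factor FOXO3 was the remaining measured member, with a difference of 0.06 against 0.38 (limma adjusted p = 0.463).

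Of the genes of the secretory pathway some were higher and others not. AGR2, a disulfide isomerase of the endoplasmic reticulum in secretory epithelia, was at 6.25 with vehicle and 8.96 with DHT in siPOTEF-AS1 cells, and at 6.05 and 8.05 in siControl cells. It rose by 2.70 and 2.00 (limma adjusted p = 0.00612), by more under siPOTEF-AS1, and no fold is given because both vehicle arrays were below the floor. MANF, a secreted protein of the endoplasmic reticulum stress response, had 10.33 and 11.23 under siPOTEF-AS1 and 10.48 and 11.13 under siControl. It was 0.90 higher, or 1.87-fold, against 0.65 (limma adjusted p = 0.0365). The chaperone DNAJB11 was 0.43 and 0.51 higher and did not pass the test (limma adjusted p = 0.0998), and SVIP, a small inhibitor of degradation from that compartment, was at -0.36 and -0.26 (limma adjusted p = 0.233). BCAP29, a membrane protein of the endoplasmic reticulum, rose by 0.97 under siPOTEF-AS1 and 1.10 under siControl (limma adjusted p = 0.0142). SEC24C, a cargo-binding part of the COPII coat, rose by 0.67 and 0.70 (limma adjusted p = 0.0378). The Gene Ontology class of protein folding and endoplasmic reticulum stress as a whole had a median of -0.07, with 12 of 19 expressed genes below 0.

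CENPN and MICAL1 come from the centromere and the cytoskeleton. CENPN, which binds nucleosomes that hold the centromeric histone variant, had 9.25 with vehicle and 12.11 with DHT in siPOTEF-AS1 cells and 9.71 and 12.22 in siControl cells. It rose by 2.86 (7.28-fold) and by 2.51 (limma adjusted p = 0.00203), the highest fold among the genes that were above the floor on both arrays. MICAL1 (ENSG00000135596, chromosome 6, 109765265 to 109776848, minus strand, GRCh37), a flavin enzyme that oxidises actin filaments, had 7.64 and 9.67 under siPOTEF-AS1 and 7.34 and 9.32 under siControl. Its differences were 2.03 (4.08-fold) and 1.98 (limma adjusted p = 0.0022).

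Regulators of transcription and signalling with higher signals are described next, and RFX3, PCBD2 and JUN, also regulators, were lower. ZBTB16, a zinc finger repressor, had 9.16 and 10.60 in siPOTEF-AS1 cells and 9.09 and 10.24 in siControl cells, a difference of 1.45 (2.72-fold) and 1.14 (limma adjusted p = 0.0106). NR4A1, an orphan nuclear receptor of the immediate early class, had 8.03 and 9.16 against 7.88 and 9.31, a difference of 1.12 (2.18-fold) and 1.43 (limma adjusted p = 0.0113). ID2, which keeps basic helix-loop-helix factors from binding DNA, had 8.01 and 9.05 against 7.13 and 8.77. ID2 rose in both pairs, by 1.04 (2.06-fold) and 1.63, and its vehicle signal was the higher one under siPOTEF-AS1 (limma adjusted p = 0.021). KLF5, a zinc finger factor of epithelia, had 7.87 and 8.80 against 7.60 and 8.75, a difference of 0.93 (1.91-fold) and 1.15 (limma adjusted p = 0.016). TSC22D1, a leucine zipper regulator, rose by 0.88 and 1.04 (limma adjusted p = 0.0181). TNFAIP3, an ubiquitin-editing enzyme that limits NF-kB signalling, had 7.0 and 8.14 against 7.40 and 8.04, a difference of 1.14 (2.20-fold) and 0.64 (limma adjusted p = 0.0474). For ZBTB16 and TNFAIP3 the siPOTEF-AS1 difference was the larger, for NR4A1, ID2, KLF5 and TSC22D1 the smaller.

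POTEF, the gene named in the antisense transcript, was 1.59 higher (3.01-fold) with DHT under siPOTEF-AS1 and POTEG 1.46 higher, against 1.42 and 1.07 under siControl (limma adjusted p = 0.00543 and 0.0144). Both vehicle arrays of POTEG were below the floor, so that the size of its difference is uncertain. POTEJ was at 0.37 and 0.10 (limma adjusted p = 0.407), and the brighter probe set of POTEI at -0.11 and -0.03 (limma adjusted p = 0.798). The other probe set of POTEI, with 6.66 and 8.22 under siPOTEF-AS1, was at 1.56 and 1.21, close to POTEF, so that the probe sets of that symbol disagree. POTE genes are near-identical copies whose probes may read each other's transcripts, so that the value of any single one is uncertain.

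Of the 13 genes that were 2-fold higher, 11 had at least 1 promoter in the RefSeq promoter table of GRCh38.p14, a window from 250 bases before to 50 after each gene start. The half-site AGAACA, searched on both strands (as AGAACA or TGTTCT), stood in at least 1 promoter of 3 of the 11 (27.3%): SGK1, MICAL1 and POTEF. Among the 2-fold lower genes it stood in 4 of 11 (36.4%), FUT8, TNFSF18, EFCAB11 and C10orf91, so that it was no rarer on the lower side. It stood in 23.3% of the 30 genes with a promoter among those 1.5-fold higher, in 16.7% of the 36 that were 1.5-fold lower, in 13.2% of 847 expressed named genes and in 17.5% of all 27305 genes of the table. Of the 7 genes at least 1.5-fold higher that hold it, the windows of 4 follow with the half-site in capitals: the 3 past 2-fold and KLF5, a transcription factor, chosen after its values were seen. SGK1 (chr6:134177812-134178111, minus strand) is the window of 1 of 3 starts, MICAL1 (chr6:109465919-109466218, minus strand) and KLF5 (chr13:73054726-73055025, plus strand) each that of 1 of 2 starts, and POTEF (chr2:130129173-130129472, minus strand) has a single start. Each is written 5′ to 3′ in the direction of the gene, from RefSeq.
SGK1: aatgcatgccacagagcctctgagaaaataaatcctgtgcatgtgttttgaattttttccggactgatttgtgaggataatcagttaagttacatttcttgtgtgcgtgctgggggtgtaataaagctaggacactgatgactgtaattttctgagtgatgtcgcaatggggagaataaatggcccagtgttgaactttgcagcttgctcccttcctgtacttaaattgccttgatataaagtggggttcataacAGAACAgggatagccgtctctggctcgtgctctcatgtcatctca
MICAL1: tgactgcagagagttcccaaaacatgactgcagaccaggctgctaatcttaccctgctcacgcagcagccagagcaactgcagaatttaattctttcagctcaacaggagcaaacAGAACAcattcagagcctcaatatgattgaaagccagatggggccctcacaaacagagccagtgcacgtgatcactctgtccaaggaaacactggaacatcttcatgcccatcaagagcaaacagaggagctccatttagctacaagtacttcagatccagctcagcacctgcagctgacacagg
POTEF: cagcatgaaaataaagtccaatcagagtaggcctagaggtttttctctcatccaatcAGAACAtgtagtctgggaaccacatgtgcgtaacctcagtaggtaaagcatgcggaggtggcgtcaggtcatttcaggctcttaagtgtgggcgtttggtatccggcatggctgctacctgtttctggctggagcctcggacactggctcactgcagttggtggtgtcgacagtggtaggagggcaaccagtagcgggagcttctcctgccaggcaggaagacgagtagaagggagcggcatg
KLF5: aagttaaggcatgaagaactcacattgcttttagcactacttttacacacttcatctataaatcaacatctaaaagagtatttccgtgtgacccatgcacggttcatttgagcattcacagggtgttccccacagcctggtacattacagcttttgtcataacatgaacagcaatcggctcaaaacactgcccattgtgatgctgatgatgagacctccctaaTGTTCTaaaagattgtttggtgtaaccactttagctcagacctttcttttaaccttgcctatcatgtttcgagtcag
The match begins 135 bases before the start in MICAL1, 193 in POTEF and 27 in KLF5, and just after the start in SGK1. The complete androgen response element, an inverted repeat of this half-site, was found without mismatch in 1 promoter of the whole table, which belonged to none of the expressed named genes. A match is a description of the letters in these windows and not a binding site.

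On the lower side, membrane proteins and an enzyme of glycans are described first. COLEC12, a scavenger receptor with a C-type lectin domain, had 9.76 with vehicle and 7.85 with DHT in siPOTEF-AS1 cells and 9.81 and 7.84 in siControl cells. It fell in both, with a difference of -1.91 (3.76-fold) under siPOTEF-AS1 and of -1.97 under siControl (limma adjusted p = 0.00241). FUT8, which adds core fucose to N-glycans, had 9.13 and 7.90 against 8.81 and 7.97, a difference of -1.22 (2.34-fold) and -0.84 (limma adjusted p = 0.0247). MCTP1, a membrane protein with C2 domains, had 7.39 and 5.55 against 7.0 and 5.88, a difference of -1.84 and -1.12 (limma adjusted p = 0.0224). The DHT arrays of MCTP1 were below the floor, so that the size of its difference is uncertain.

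Ligands and receptors of immune signalling followed. TNFSF18, the ligand of the costimulatory receptor GITR, had 7.70 and 6.49 in siPOTEF-AS1 cells and 7.35 and 5.31 in siControl cells. The gene fell, with differences of -1.22 (2.32-fold) and -2.04 (limma adjusted p = 0.0228), and by less under siPOTEF-AS1. TNFSF15, another ligand of that superfamily, had 8.68 and 7.77 against 8.64 and 7.51, a difference of -0.91 (1.87-fold) and -1.13 (limma adjusted p = 0.0174). IL17RB, a receptor chain for interleukin 25, was at -0.87 and -0.54 (limma adjusted p = 0.054).

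RFX3, a transcription factor of ciliary genes, had 7.75 and 6.10 in siPOTEF-AS1 cells and 7.51 and 6.23 in siControl cells, a difference of -1.64 and -1.28 (limma adjusted p = 0.00867). SRGAP3, a GTPase-activating protein of cell migration, had 7.59 and 6.53 against 7.62 and 6.76, a difference of -1.05 (2.08-fold) and -0.86 (limma adjusted p = 0.0195). EFCAB11, a protein with EF hands, had 8.42 and 7.21 against 8.24 and 7.16, a difference of -1.21 (2.31-fold) and -1.08 (limma adjusted p = 0.0106). These 3 genes were lower in both arms, and by more under siPOTEF-AS1. Both DHT arrays of RFX3 were below the floor, so that the size of its difference is uncertain in each arm. PCBD2, a pterin dehydratase and cofactor of a homeobox factor, was at -1.06 (2.08-fold) and -0.68 (limma adjusted p = 0.0365), with 8.17 and 7.12 against 8.0 and 7.32. CLYBL (2.01-fold), a mitochondrial lyase, had 8.33 and 7.32 against 8.21 and 7.54, a difference of -1.01 and -0.67 (limma adjusted p = 0.0359). The pseudogene ANKRD20A9P was at -1.28 and -1.24 (limma adjusted p = 0.00717) and C10orf91, now LINC02870, at -1.11 and -1.10 (limma adjusted p = 0.0107), each with the siPOTEF-AS1 DHT array below the floor. The 12th gene, RFC3, is described with the replication genes.

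Another 34 genes lay between 1.5-fold and 2-fold higher and 41 between 1.5-fold and 2-fold lower, so that 47 (3.62%) and 53 (4.08%) of 1300 were past 1.5-fold. Around the 2-fold line, ID2 at 1.04 was just inside and BCAP29 at 0.97 just outside on the higher side, and RFC3 at -1.01 and, of the genes reported here, SPC24 at -0.92 on the lower. Limma called 17 of the 34 and 11 of the 41, against 4% of all expressed genes. These genes too were chosen by the siPOTEF-AS1 difference, so that the counts are no independent evidence. Genes of sterol handling were among the higher. NSDHL, an enzyme of cholesterol synthesis, had 10.14 and 10.95 in siPOTEF-AS1 cells and 10.04 and 10.70 in siControl cells, a difference of 0.81 (1.76-fold) and 0.66 (limma adjusted p = 0.0351). STARD4, which carries cholesterol between membranes, had 8.88 and 9.78 against 9.04 and 9.43, a difference of 0.90 (1.87-fold) and 0.39 that did not pass (limma adjusted p = 0.107). The lipoprotein receptor SCARB1 was at 0.39 and 0.18 (limma adjusted p = 0.297). ECI2, an isomerase of fatty acid oxidation, rose by 0.77 and 0.71 (limma adjusted p = 0.0321).

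Regulators of signalling were found on both sides. ARHGAP26, a GTPase-activating protein too, rose by 0.88 and 0.72 (limma adjusted p = 0.0282), and MTMR11, of the myotubularin family, by 0.88 and 0.67 (limma adjusted p = 0.034). AKAP1, which anchors protein kinase A at mitochondria, rose by 0.81 and 0.93 (limma adjusted p = 0.0226). SPRY1, an inhibitor of receptor tyrosine kinase signalling, fell, with differences of -0.80 and -0.79 (limma adjusted p = 0.026), with 9.16 and 8.37 in siPOTEF-AS1 cells and 9.14 and 8.35 in siControl cells. Its pairs were almost equal in both arms. JUN, a subunit of AP-1, fell, at -0.65 and -0.76 (limma adjusted p = 0.0372), while its fellow immediate early genes NR4A1 and ID2 rose. Other genes of this range were FLJ25715 (0.91 and 0.47), LOC100128262 (0.85 and 0.83) and LOC388022 (0.78 and 0.73) above 0, and ZNF724P (-0.89 and -0.59), RNU6-54 (-0.84 and -0.83), OR51A9P (-0.84 and -0.67) and RPS3AP25 (-0.83 and -0.42) below it. Limma called these except FLJ25715 and RPS3AP25 (adjusted p = 0.0761 and 0.0914).

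Other kinetochore and replication genes did not go with CENPN, and few of them passed the test. SPC24, a subunit of the NDC80 complex that holds microtubules, had 8.40 with vehicle and 7.48 with DHT in siPOTEF-AS1 cells and 8.35 and 7.99 in siControl cells, a difference of -0.92 (1.89-fold) and -0.36 (limma adjusted p = 0.12). CASC5, now KNL1, a kinetochore scaffold, had 8.23 and 7.33 against 8.30 and 7.67. CASC5 fell, at -0.90 and -0.63 (limma adjusted p = 0.0398). MLF1IP, now CENPU, a centromere protein, had 7.87 and 7.03 against 7.87 and 7.35, a difference of -0.84 (1.80-fold) and -0.52 (limma adjusted p = 0.0595). CENPV was at -0.51 in both arms (limma adjusted p = 0.0788) and CENPT at 0.08 and -0.05 (limma adjusted p = 0.963). Of the kinetochore genes named here CENPN alone was past 1.5-fold higher. In the cellular component class for kinetochore and centromere, chosen after values were seen, 14 expressed genes had a median of -0.18, with 5 genes above 0 and 9 below it. Of the 14, 1 was 1.5-fold higher (7.14%) and 3 lower (21.4%), against 3.62% and 4.08% of all expressed genes.

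RFC3 (ENSG00000133119, chromosome 13, 34392186 to 34411633, plus strand, GRCh37), a subunit of the clamp loader that puts PCNA on DNA, had 8.71 and 7.70 in siPOTEF-AS1 cells and 8.58 and 8.07 in siControl cells. Its difference was -1.01 (2.01-fold) and -0.51 and did not pass the test (limma adjusted p = 0.0699). With quantile normalization repeated or the signal trend removed, RFC3 and CLYBL dropped just under 2-fold. RFC1, the large subunit of the same loader, had 7.98 and 7.23 against 8.22 and 7.35 and fell, at -0.75 and -0.87 (limma adjusted p = 0.0261). CLSPN, a replication checkpoint mediator, was at -0.71 and -0.43, with only the siPOTEF-AS1 vehicle array reaching the floor (limma adjusted p = 0.0837). The motif TTTCCCGC, a binding site of E2F factors in replication genes, was searched on both strands (as TTTCCCGC or GCGGGAAA) and stood in the promoters of RFC3 and CLSPN, 2 of 36 genes with a promoter that were 1.5-fold lower (5.56%). It was in 0 of the 30 that were 1.5-fold higher, in 3.9% of the 847 expressed named genes and in 1.98% of the 27305 genes. CLSPN entered the lower genes through the filter on that single vehicle array, so that these shares are a description only. Both windows, chr13:33817899-33818198 on the plus strand for RFC3 and chr1:35769929-35770228 on the minus strand for CLSPN, are shown with that motif in capitals (RefSeq, GRCh38.p14).
RFC3: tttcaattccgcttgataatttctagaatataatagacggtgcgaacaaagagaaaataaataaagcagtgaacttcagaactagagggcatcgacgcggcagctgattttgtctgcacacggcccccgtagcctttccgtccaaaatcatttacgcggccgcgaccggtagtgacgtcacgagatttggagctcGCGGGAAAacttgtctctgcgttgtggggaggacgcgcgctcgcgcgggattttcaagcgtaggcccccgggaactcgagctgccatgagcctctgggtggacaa
CLSPN: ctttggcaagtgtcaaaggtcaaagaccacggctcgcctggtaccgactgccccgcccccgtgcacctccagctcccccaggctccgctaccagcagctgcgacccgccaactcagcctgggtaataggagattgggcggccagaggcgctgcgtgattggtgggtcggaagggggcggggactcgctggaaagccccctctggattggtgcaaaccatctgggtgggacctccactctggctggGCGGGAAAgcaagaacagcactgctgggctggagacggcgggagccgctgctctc
The match begins 55 bases before the start in RFC3 and 5 before it in CLSPN. The motif TTTGAA, known as the cell cycle homology region, was in the promoters of 8.33% of the 1.5-fold lower genes, 20% of the 1.5-fold higher ones and 36.4% of the 2-fold higher ones, CENPN among these, against 12.8% of expressed named genes and 18.2% of all genes. The sterol element TCACNCCAC was in none of the 30 genes with a promoter that were 1.5-fold higher and none of the 36 lower. It was in 1.18% of the 847 expressed named genes and 1.39% of all genes, so that none in sets of this size is near that share.

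**Figure D2:**
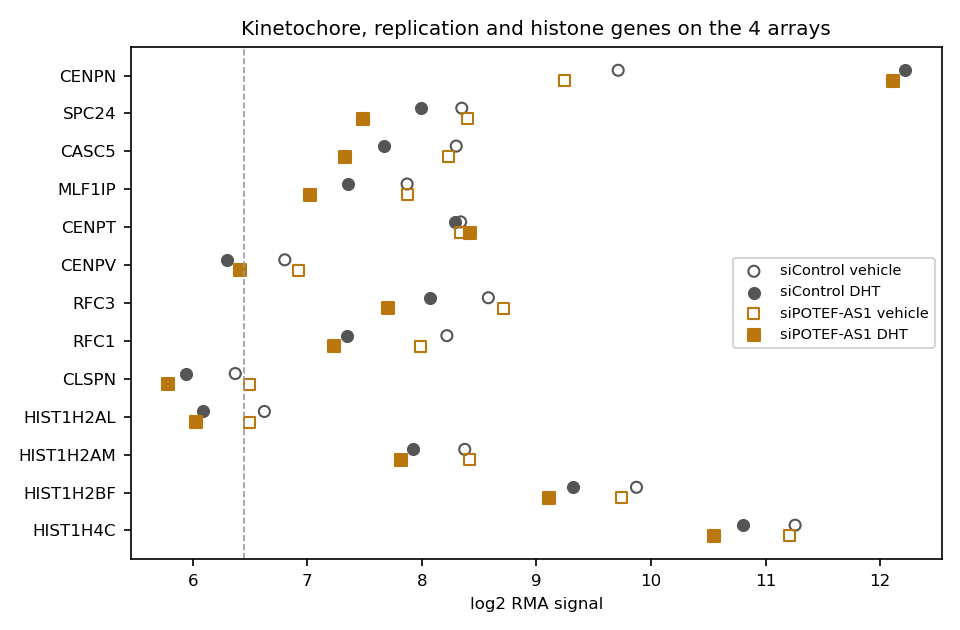
Log2 signal on the 4 arrays for kinetochore, replication and histone genes, 1 row a gene and 1 marker an array, with a dashed line at the expression floor. CENPN is the gene whose DHT arrays lie far above its vehicle arrays (12.11 against 9.25 under siPOTEF-AS1), while RFC3, SPC24, CASC5 and the histone HIST1H4C have DHT arrays below their vehicle arrays in both arms.

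Histone genes, which are transcribed mainly while DNA replicates, were lower as a group. Of 26 histone genes 18 were expressed, with a median of -0.34 under siPOTEF-AS1 and -0.29 under siControl, against 0.00 and -0.04 over all expressed genes. The difference was below 0 in 17 of the 18 under siPOTEF-AS1 and in 18 under siControl. Under siPOTEF-AS1 3 were past 1.5-fold lower (16.7%), against 4.08% of all expressed genes. HIST1H4C, now H4C3, had 11.21 and 10.55 in siPOTEF-AS1 cells and 11.26 and 10.80 in siControl cells. Its difference was -0.66 and -0.45, and those of HIST1H2BF and HIST1H2AM were -0.63 and -0.60 under siPOTEF-AS1. None of the 18 passed the test (limma adjusted p = 0.0758, 0.0556 and 0.0812 for these 3). Histone genes of a cluster are alike in sequence, so that their probe sets are not independent of each other.

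By Gene Ontology process, the class of cell cycle and mitosis had 68 expressed genes of 80, with a median of -0.14 against -0.09 under siControl. Of these, 2 were 1.5-fold higher (2.94%) and 7 lower (10.3%), and 49 were below 0. Limma called 1 higher, CENPN, and 3 lower, among them CASC5. The class of chromatin and nucleosome had a median of -0.21 over 48 expressed genes, with 5 past 1.5-fold lower (10.4%) and 1 higher (2.08%). In DNA replication and repair 45 expressed genes had a median of -0.06, which was -0.005 with the signal trend removed. There 3 were 1.5-fold lower (6.67%: RFC3, RFC1 and CLSPN), and limma called 1 gene of the class. CLSPN counted as expressed through its siPOTEF-AS1 vehicle array alone, so that its place among the 3 rests on that array. Over all expressed genes 3.62% were 1.5-fold higher and 4.08% lower, and the shares of these classes rest on a few genes. These classes share members.

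The protein synthesis machinery was slightly lower. Ribosomal protein genes and their pseudogenes, 28 expressed of 38, had a median of -0.21 under siPOTEF-AS1 and -0.12 under siControl, and 27 and 23 of them were below 0. RPS3AP25 at -0.83 and RPS15AP1 at -0.61, both pseudogenes, were the 2 past 1.5-fold, and none passed the test. Those 2 are 7.14% of the 28, against 4.08% of all expressed genes past 1.5-fold lower. The Gene Ontology class of translation had a median of -0.16 over 37 expressed genes against -0.05, with 0 past 1.5-fold. The 7 expressed mitochondrial transfer RNA genes were all below 0 in both arms, with medians of -0.31 and -0.29 and a range of -0.56 to -0.09 under siPOTEF-AS1. Bright probe sets had differences a little below 0 in general: other annotated probe sets with a mean signal of 8 to 9 had a median of -0.07 under siPOTEF-AS1. With that trend removed the median of the ribosomal protein genes was -0.16, with 27 of 28 below 0, that of translation -0.11, with 24 of 37 below 0 against 26 before, and that of the transfer RNA genes -0.26, with 7 of 7 below 0.

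Lipid and sterol metabolism had a median of -0.02 over 36 expressed genes, near that of all genes, with 4 past 1.5-fold higher (11.1%) and 2 lower (5.56%). The 4 were NR4A1, STARD4, NSDHL and ECI2, of which limma called all but STARD4. Vesicle and Golgi transport had a median of 0.10 over 49 genes, with AGR2 and BCAP29 among 3 higher (6.12%) and FUT8 and TNFSF15 among 3 lower (6.12%). Apoptosis had a median of -0.01 over 65 genes, with MICAL1, NR4A1 and BCAP29 among 4 higher and TNFSF18 among 3 lower. Immune and inflammatory genes, 89 expressed, were at -0.07, with COLEC12, TNFSF18 and TNFSF15 among 6 lower and NR4A1 among 3 higher. Transcription, with 159 expressed genes the largest of these, was at -0.02 with 5 higher, NR4A1 and KLF5 among them, and 4 lower. Against the background of 3.62% higher and 4.08% lower, the shares were 6.15% and 4.62% in apoptosis, 3.37% and 6.74% in the immune class and 3.14% and 2.52% in transcription, each resting on a few genes. The Gene Ontology text of 98 of the 1242 genes with an entry was not used here, SGK1, IGF1R, ZBTB16, ID2 and TNFAIP3 among them, so that no process class counts these.

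**Figure D3:**
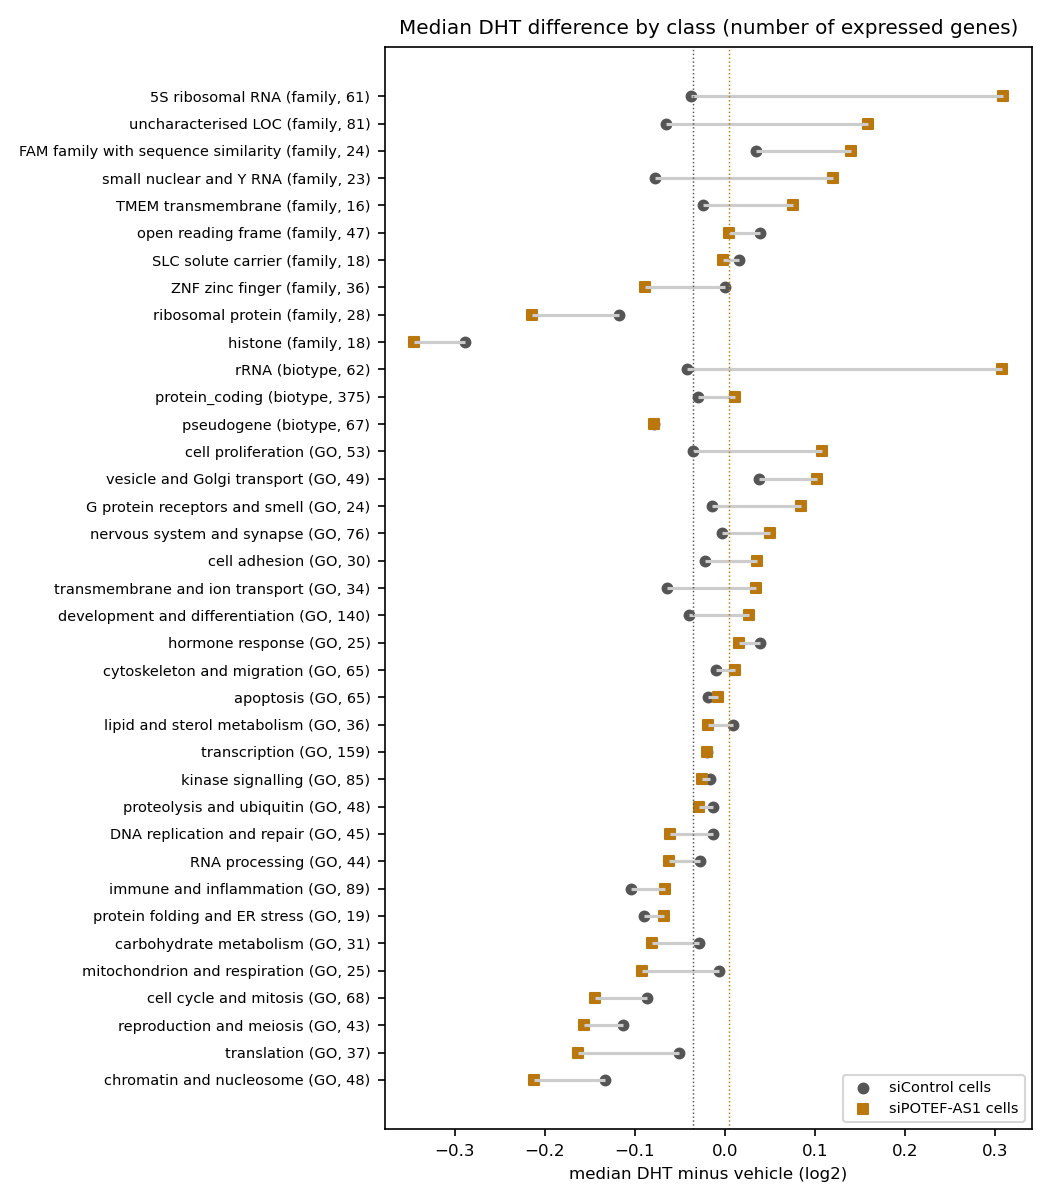
Median log2 DHT difference of the expressed members of each class under siPOTEF-AS1 and under siControl, with Gene Ontology processes, symbol families and gene biotypes in 1 row each and dotted lines at the medians of all expressed genes. Histone genes lie at -0.34 and -0.29, while the 5S ribosomal RNA entries lie at 0.31 under siPOTEF-AS1 and at -0.04 under siControl.

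By gene biotype, 375 expressed protein-coding genes had a median of 0.01, with 4% past 1.5-fold higher and 2.93% lower. Pseudogenes, 67 expressed, had a median of -0.08, with 1 higher (1.49%) and 5 lower (7.46%), ANKRD20A9P, OR51A9P and RPS3AP25 among the latter. Over all expressed genes these shares were 3.62% and 4.08%. The few expressed small nuclear RNA genes, 8 of 47, had a median of 0.18, which was -0.04 without the expression filter. By symbol, zinc finger genes named ZNF had a median of -0.09 over 36, and solute carriers 0.00 over 18. Of the solute carriers 2 were higher (11.1%) and 3 lower (16.7%), shares that rest on a few genes. Protocadherins of the beta cluster, which are cell adhesion proteins encoded side by side, were below 0 in all 4 expressed members: PCDHB14 at -0.59, PCDHB13 at -0.46, PCDHB3 at -0.42 and PCDHB15 at -0.40. In siControl cells the same 4 were at 0.16, -0.01, 0.18 and -0.15, with a median of 0.08 against -0.44. PCDHB14, for example, had 8.77 and 8.18 in siPOTEF-AS1 cells and 8.82 and 8.98 in siControl cells, so that the siPOTEF-AS1 DHT array alone was low. None passed the test of a common effect (limma adjusted p of PCDHB14 = 0.637).

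The entries for 5S ribosomal RNA, mostly pseudogenes of the small RNA in the large ribosomal subunit, were the class in which the arms were farthest apart among those with over 50 expressed members, together with the rRNA biotype, which is nearly the same set. Of 258 such entries 61 were expressed, with a median of 0.31 under siPOTEF-AS1 (quartiles 0.15 and 0.41) and of -0.04 under siControl (quartiles -0.17 and 0.10). The difference was above 0 in 54 of the 61 under siPOTEF-AS1 and in 24 under siControl. Over all 258 entries, whatever their signal, the medians were 0.16 and 0.01, with 180 and 134 above 0. An entry passed the filter if a single array reached the floor, as RNA5SP402 did on the siPOTEF-AS1 DHT array alone, so that the median and counts of the 61 are a description only. RNA5SP218 had 6.46 with vehicle and 7.15 with DHT in siPOTEF-AS1 cells against 7.08 and 7.06 in siControl cells, and RNA5SP412 had 8.24 and 8.92 against 8.76 and 8.62. In both, the siPOTEF-AS1 vehicle array was the low one. It was the lowest of the 4 arrays in 42 of the 61 entries, and the siPOTEF-AS1 DHT array was the highest in 37. Over all 258 entries the siPOTEF-AS1 vehicle array was the lowest in 111. The same counts over all expressed genes are not given here. In the vehicle arrays the 61 entries were lower under siPOTEF-AS1 than under siControl by a median of -0.23, and in the DHT arrays they were 0.09 higher. RNA5SP85 went the other way, with -0.55 under siPOTEF-AS1 and 0.36 under siControl. Of the 61, 5 were past 1.5-fold higher (8.2%) and 0 lower, and limma called 0 for a common hormone effect.

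The difference under siPOTEF-AS1 varied with signal in the other probe sets too. At a mean log2 signal of 3 to 4 the 64 entries for 5S RNA had a median of 0.00, as had the other annotated probe sets, and at 4 to 5 both had 0.07, over 59 such entries. The other annotated probe sets with a mean log2 signal of 6 to 7 had a median of 0.10 under siPOTEF-AS1, where 42 entries for 5S RNA had 0.25. At 5 to 6 the medians were 0.10 and 0.19, with 56 such entries. At 7 to 8 and at 8 to 9 the other probe sets had 0.01 and -0.07, and the 17 and 12 such entries had 0.30 and 0.32. With the trend of signal removed over all annotated probe sets the median of the 61 was 0.29, and it was 0.27 with each array centred. The entries are similar in sequence, so that they may read the same RNA and are not independent of each other. Genes named LOC, most of them uncharacterised, shared the pattern in a smaller size, with a median of 0.16 over 81 expressed genes against -0.07, and 59 above 0 against 33. The part of the single siPOTEF-AS1 vehicle array in these values was not tested.

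**Figure D4:**
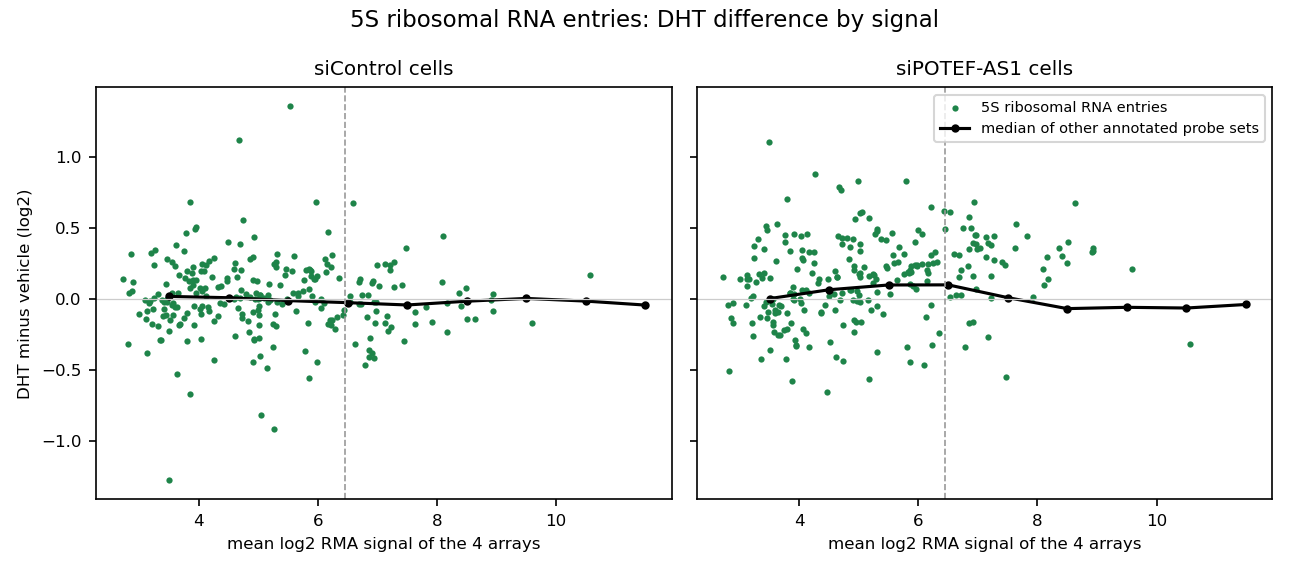
Log2 DHT difference (vertical) against mean log2 signal (horizontal) of the 5S ribosomal RNA entries under siPOTEF-AS1 and under siControl, 1 point an entry, with a line for the median of the other annotated probe sets in steps of 1 log2 unit and a dashed line at the expression floor. Under siPOTEF-AS1 most entries brighter than 5 lie above 0 and above the line, and under siControl they lie around it.

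The lists of pathway genes were small, because the table names few genes of any pathway: 39 of 373 listed genes were measured. Of 9 named genes of the androgen-induced list 8 were expressed, with a median of 2.21 under siPOTEF-AS1 and 1.99 under siControl, and 7 were past 1.5-fold. That list was written with these responses known, and its count is no independent evidence. KLK15, a kallikrein protease, was the expressed member that was not, with 7.06 and 7.09 in siPOTEF-AS1 cells and 6.89 and 7.20 in siControl cells. Of the androgen-repressed list COLEC12 alone was past 1.5-fold, with MAOA, which degrades monoamines, at 0.23 and ABCG1, a sterol exporter, at -0.11. Of the list of p53 targets, CCNG1 was at -0.35 and GADD45A at -0.29. CDC20, the activator of the anaphase-promoting complex, was at -0.21, the survival gene BCL2 at -0.07 and the amino acid transporter subunit SLC3A2 at 0.16. The immediate early genes CTGF, now CCN2, and IER3 were at 0.23 and 0.18. Of the genes in this paragraph COLEC12 passed the test, and KLK15, MAOA, ABCG1, CCNG1, GADD45A, CDC20, BCL2, SLC3A2, CTGF and IER3 did not, with limma adjusted p from 0.326 for CCNG1 to 0.916 for SLC3A2.

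Interferon-stimulated genes, which code for antiviral proteins, were near 0 under siPOTEF-AS1 with a median of 0.06 over 7 genes, and at -0.28 under siControl. BST2, a tether of budding virus, had its highest signal, 11.44, on the siPOTEF-AS1 DHT array and its lowest, 10.68, on the siControl DHT array, with differences of 0.44 and -0.27. CMPK2, a mitochondrial nucleotide kinase, had 10.72 and 10.80 against 10.70 and 10.20, and OASL, of the oligoadenylate synthetase family, 11.97 and 12.02 against 12.24 and 11.83. All 7 were below 0 under siControl and 2 of 7 under siPOTEF-AS1. Over all 1300 expressed genes 739 were below 0 under siControl and 640 under siPOTEF-AS1. This list, which includes SP140L, was written with earlier results of these data known, so that its medians and counts are a description only. The remaining members, IFI44L, IFITM1 and IFITM3, were at 0.06, -0.04 and 0.00 under siPOTEF-AS1. SP140L, a nuclear body protein, had 8.17 and 8.46 under siPOTEF-AS1 and 8.26 and 7.25 under siControl, so that the siControl DHT array stood below the other 3.

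Most of the 2-fold genes were shared by both arms. Of the 13 genes 2-fold higher under siPOTEF-AS1, 11 were also 2-fold higher under siControl, where 15 (1.15%) were, and of the 12 lower genes 7 were, where 9 (0.692%) were. Of those past 1.5-fold, 30 of 47 higher genes and 22 of 53 lower genes were also past it under siControl, where 35 (2.69%) and 39 (3%) were. No gene was past 1.5-fold in opposite directions. Over the 1300 expressed genes the differences of both arms correlated with Pearson's r of 0.72 and Spearman's rho of 0.51. Without the genes past 2-fold in either arm r was 0.55 over 1269. The points are genes of the same 4 arrays normalized together, so that the correlation describes these arrays and carries no p.

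**Figure D5:**
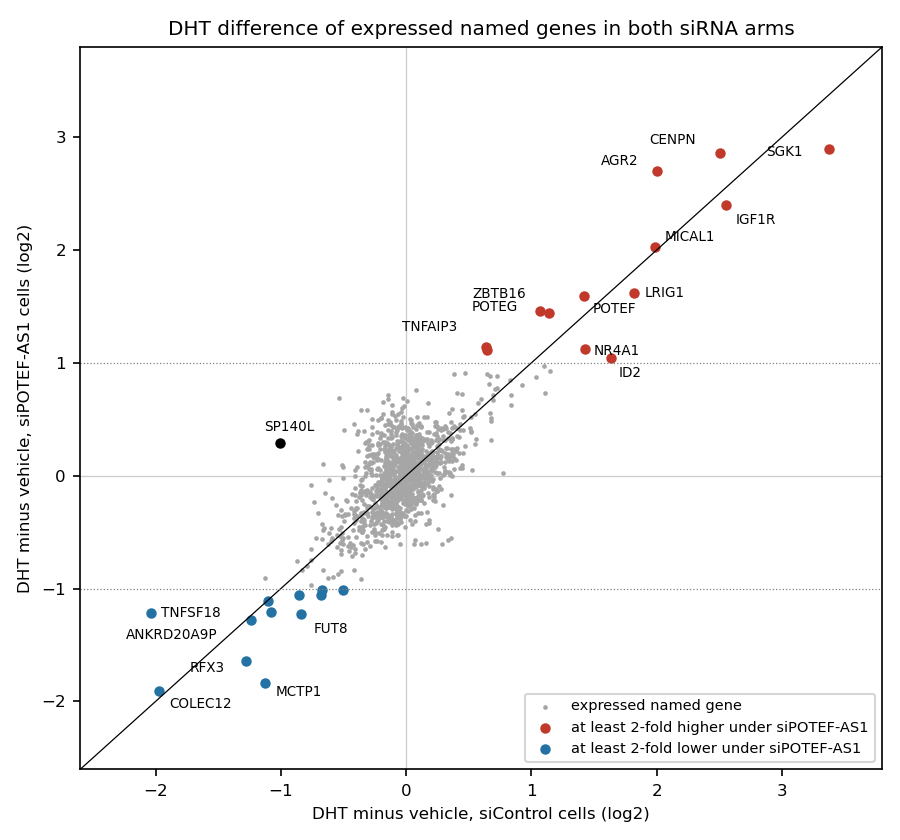
Log2 DHT difference under siPOTEF-AS1 (vertical) against that under siControl (horizontal) for the 1300 expressed named genes, 1 point a gene, with genes past 2-fold under siPOTEF-AS1 in colour, most of them named, a diagonal for equal differences and dotted lines at 2-fold. The genes in colour lie on the same side of 0 in both arms, but not all lie near the diagonal. Under siPOTEF-AS1 and siControl AGR2 is at 2.70 and 2.00, TNFSF18 at -1.22 and -2.04 and MCTP1 at -1.84 and -1.12. SP140L (black) lies above the diagonal, at 0.29 under siPOTEF-AS1 and -1.0 under siControl.

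The spread of the differences was wider under siPOTEF-AS1, with a robust SD across genes of 0.30 against 0.20, and of 0.28 against 0.20 with the signal trend removed. To compare the size of the responses with both arms counted equally in the choice, genes whose mean over both arms was past 1.5-fold were taken. Such a choice still favours the arm with the wider spread, so that the counts that follow are a description only. On the higher side there were 35, of which 20 were larger under siPOTEF-AS1, with medians of 0.90 and 0.83. With each array centred on its median 14 of the 35 were larger, so that the direction depended on the centring. On the lower side 23 of 33 were lower still under siPOTEF-AS1, with medians of -0.89 and -0.72, and 27 with centring. The DHT difference was past 2-fold larger under siPOTEF-AS1 than under siControl in 2 genes (0.154%), SP140L and LOC100996378, and past 2-fold smaller in 0 (0%), which could not be tested.

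The 8 genes in each direction in which the arms were farthest apart were as follows. On the higher side they were SP140L (0.29 and -1.0), LOC100996378 (0.69 and -0.54), SLFNL1, LOC101060546 (0.72 and -0.15), RNU6-23P and the 5S entries RNA5SP116, RNA5SP343 and RNA5SP402. On the lower side they were RNA5SP85, RNY4P16, SLC25A51 (-0.60 and 0.29), GNAQ (0.02 and 0.78), PCDHB14 (-0.59 and 0.16), METTL2B (-0.47 and 0.25), FITM2 (-0.61 and 0.12) and MCTP1. GNAQ, an alpha subunit of heterotrimeric G proteins, had 9.26 and 9.28 in siPOTEF-AS1 cells and 8.73 and 9.51 in siControl cells. Its siControl vehicle array was the low one. FITM2, which helps form lipid droplets, had 8.71 and 8.10 against 8.48 and 8.59, with the siPOTEF-AS1 DHT array low. MCTP1 was the only one of these 16 genes that was also past 2-fold with DHT under siPOTEF-AS1.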

How the data were processed

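Arrays were summarised by the authors with RMA in Affymetrix Expression Console, according to the submitters' processing notes, without versions. The deposited unit is the log2 signal of a probe set. RMA brings arrays to a common distribution, so that a change in total RNA per cell is removed, and it compresses dim signals. A second deposited table held the same values within 1.78e-15. No detection call was used, and the number of arrays, 1 a group, limits the precision.

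Computed here were differences of log2 signals between 2 arrays, counts past 2-fold and 1.5-fold, class medians, and limma 3.58.1 (R 4.3.3) with siRNA and hormone terms (prior degrees of freedom 4.55), tested on simulated data. Classes came from Gene Ontology text, symbol stems and gene biotypes in the table. The members, classes and lists were chosen with earlier results of these data known. Genes were named by size: up to 20 at 2-fold, 12 between 1.5-fold and 2-fold and 8 by difference of the arms in each direction, up to 4 per class, and the members of the lists. A few genes that met this rule are not reported here. Alternatives were centring, quantile normalization, removal of the signal trend (lowess), other expression filters and averaged probe sets. Coordinates in the table are GRCh37, and promoters come from RefSeq, GRCh38.p14. Of 16 lists, 2 had no measured gene.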

Additional observations from a re-analysis of the deposited data

Results flagged for a closer look

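In 2 genes the DHT difference under siPOTEF-AS1 was more than 2-fold above that under siControl and opposite in sign. For SP140L the gap was 1.29 on the log2 scale (0.29 against -1.0), with the siControl DHT array standing below the other 3. For LOC100996378 it was 1.23 (0.69 against -0.54), with values of 7.38 and 8.07 in siPOTEF-AS1 cells and 7.94 and 7.40 in siControl cells. Each rests on 1 array a group, and neither difference was tested, since the design leaves no residual degree of freedom for it.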

How the results depend on the processing

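No paired analysis was possible because each group had 1 array, so that no replicate number could serve as a block. The limma fit compares hormone within each siRNA arm through its siRNA term, which is part of that fit and not a further analysis. With no expression filter the genes 1.5-fold higher numbered 82 and r between the arms was 0.50. With the filter at the 75th percentile there were 6 genes 2-fold lower, 30 that were 1.5-fold higher and 31 that were 1.5-fold lower. An alternative chosen after seeing the data, r without genes past 2-fold, gave 0.55. The hormone term of limma called 52 expressed named genes. It called 137 with a signal trend in the prior, 142 fitted on expressed annotated probe sets alone, 94 on expressed named genes alone, 118 with arrays centred and 37 with quantile normalization repeated, so that the number of calls depends strongly on the fit. Under centring, repeated quantile normalization and trend removal the other counts stayed within 1.5 times. No gene past 2-fold changed sign under these alternatives. Centring shifts the siPOTEF-AS1 difference by -0.037, so that under centring this outcome was fixed in advance and is no evidence of stability. Of the class medians, 25 of 64 changed sign under at least 1 alternative, the largest of these being 0.18 in size, those of apoptosis (-0.01 to 0.05 with the trend removed), transcription (-0.02 to 0.00) and protein-coding genes (0.01 to -0.03 with centring) among them. Without the filter so did those of pseudogenes (-0.08 to 0.01), ZNF genes (-0.09 to 0.00) and small nuclear RNA genes (0.18 to -0.04). The dimmest genes are limited by background, since signal over background was not known.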
